A study of Ovis aries with 20 samples.

Results

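Genes of the mitochondrial respiratory chain and of the ATP synthase were followed in RNA sequencing counts of sheep trachea before and at birth. They were chosen by name and place: nuclear genes whose symbol is NDUFA, NDUFB, NDUFC, NDUFS or NDUFV with a digit, or begins with UQCR, ATP5 or COX and a digit from 4 to 8, the 4 genes SDHA, SDHB, SDHC and SDHD, and every gene of the mitochondrial chromosome. This gave 73 of the 24478 genes in the tables, of which 13 lie in mitochondrial DNA and 60 in the nucleus, and all 73 passed the filter on low counts. The 13 mitochondrial genes were the 7 complex I genes ND1, ND2, ND3, ND4, ND4L, ND5 and ND6, the complex III gene CYTB, the complex IV genes COX1, COX2 and COX3, and the ATP synthase genes ATP6 and ATP8. The 60 nuclear genes were 36 subunits of complex I, the 4 of complex II, UQCRH of complex III, COX5A and NDUFA4 of complex IV, NDUFA4L2 as a paralogue of NDUFA4, 14 genes of the ATP synthase, and ATP5S and ATP5SL, which carry the name but encode no subunit of that enzyme. The other nuclear subunits of complexes III and IV were not analysed here.

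The samples were tracheal tissue of sheep (Ovis aries), labelled epithelial, from WT animals, called healthy donors, and from CF animals, called CF donors, at days 65, 80, 100, 120 and 147, the last being birth. CF is cystic fibrosis, the disease of lost CFTR, an anion channel of epithelia, and the study looks for early defects of its development. The sources used here do not give the allele of CFTR, the breed or the sex of the animals. Each of the 10 groups of genotype and age held 2 libraries, 20 in all. The labels give each library a sample identifier. It differs between the replicates in 8 of the 10 groups, in 4 of these by the suffix alone, and is the same for both libraries of WT day 100 and for both of CF day 147. The identifier of WT day 65 replicate 2 is also that of CF day 100 replicate 2, across genotype and age. The labels do not say what an identifier stands for, so separate animals cannot be told from repeated samples, and the p-values measure only how these samples vary, which may be technical.

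Complexes I to IV pass electrons from NADH and succinate to oxygen. Complexes I, III and IV also pump protons out of the mitochondrial matrix, and the ATP synthase makes ATP from the proton gradient. The 13 proteins of mitochondrial DNA form part of the core of complexes I, III and IV and of the synthase, while complex II and all other subunits are encoded in the nucleus and imported. The mitochondrial genome is transcribed from both strands into long precursors that are cut into single RNAs, so its genes share transcription, whereas each nuclear subunit has its own promoter. In the airway, ATP feeds the beat of cilia and the transport of ions, and in newborn sheep brown adipocytes, cells rich in mitochondria, make heat by letting protons leak through UCP1.

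Total counts per library ran from 42372433 to 87651829. Of 12 epithelial markers, the summed level was 1258 to 6993 CPM (depth-scaled counts, on library sizes scaled by the trimmed mean of M-values), with none at 0 in any library, and that of 11 fibroblast markers was 4649 to 53520 CPM. Single libraries held genes of other organs: thyroid genes summed to 110800 CPM in WT day 80 replicate 2, liver genes to 19410 CPM in CF day 65 replicate 2, and skeletal muscle genes to 28450 CPM in CF day 80 replicate 1 and 730 CPM in WT day 65 replicate 2. The libraries also differed in how counts fell on short and long genes. Each library was given a length slope, the slope on log2 gene length of log2 CPM relative to the gene's mean, which ran from -0.34 to 0.31 over genes other than those described here. It lay under -0.2, so in favour of short genes, in 4 libraries, all of them WT: day 80 replicate 1, day 100 replicate 1, day 120 replicate 2 and day 147 replicate 2. CF day 120 replicate 1, at -0.20, lay just outside.

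The mitochondrial genes were at higher levels per length than the nuclear ones. By median CPM per kilobase of gene length over the 20 libraries, COX3 stood first at 5159, followed by COX1 at 3638, ATP6 at 3167, CYTB at 2996 and COX2 at 2522. ND5, the longest of them, was the lowest at 392.9 CPM per kilobase. Among the nuclear genes ATP5G2, which encodes subunit c of the rotor of the synthase, led with 497.1 CPM per kilobase, and UQCRH, the hinge protein of complex III, had 372. ATP5B and ATP5A1, the beta and alpha subunits of the catalytic head, had 292.6 and 253.8. Only ATP5G2 among the nuclear genes lay above the lowest mitochondrial one. The lowest was NDUFA4L2, with 7.34 CPM per kilobase. Levels of neighbours in this order overlapped between libraries: ATP5B, for example, ran from 182.4 to 510.8 and ATP5A1 from 151.3 to 398.1 CPM per kilobase. The sources used here do not say how reads that match a pseudogene or a nuclear copy of mitochondrial DNA were counted, so genes with such copies are uncertain.

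The summed share of the 13 mitochondrial genes was highest in birth libraries of both genotypes, but only in some of them. In WT it was 2.36% and 1.64% of all counts at day 65 (replicates 1 and 2 here and below), 1.01% and 1.95% at day 80, 2.26% and 2.55% at day 100, 4.13% and 1.63% at day 120, and 7.29% and 1.66% at day 147. In CF it was 2.83% and 2.51% at day 65, 2.99% and 1.57% at day 80, 2.55% and 2.78% at day 100, 2.51% and 2.93% at day 120, and 4.20% and 9.90% at day 147. Both CF birth libraries thus lay above all CF libraries of day 65, whereas the WT birth libraries lay on either side of day 65 and 4.11-fold apart by the median mitochondrial gene.

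The 60 nuclear genes together took less than 1% of the counts in every library. In WT their summed share was 0.366% and 0.401% at day 65, 0.762% and 0.489% at day 80, 0.715% and 0.610% at day 100, 0.579% and 0.690% at day 120, and 0.619% and 0.770% at day 147. In CF it was 0.465% and 0.429% at day 65, 0.835% and 0.595% at day 80, 0.457% and 0.454% at day 100, 0.765% and 0.424% at day 120, and 0.400% and 0.754% at day 147. All WT libraries after day 65 lay above both WT libraries of that age, while in CF 1 birth library lay below and 1 above the pair of day 65. In bulk tissue, fewer cells of a type and less RNA per cell cannot be told apart.

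**Figure D1:**
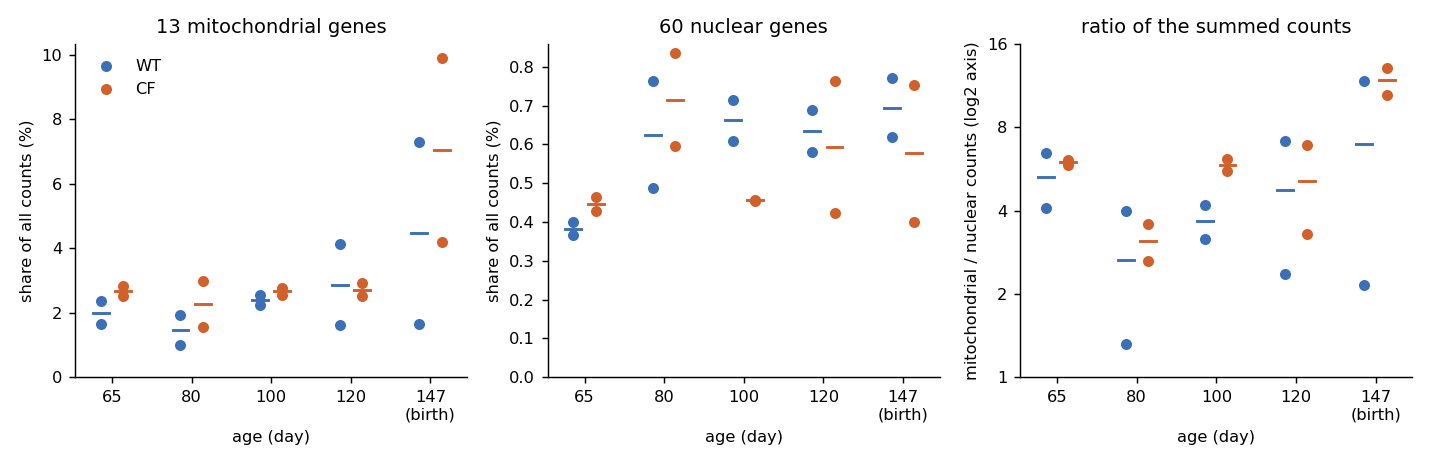
Share of all counts (%) of the 13 mitochondrial and of the 60 nuclear genes, and the ratio of the sums (log2 axis), against age in days; each point is a library (WT blue, CF orange) and each bar the mean of 2. The birth libraries reach 7.29% in WT and 9.90% in CF for the mitochondrial genes, and the mean of the WT day 65 pair is the lowest of the 10 for the nuclear genes.

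From day 65 to birth, averaged over both genotypes, 21 of the 60 nuclear genes were higher at birth and none was lower, where 8.77% of all 20097 genes tested were called higher and 9.86% lower, 18.6% in all (edgeR quasi-likelihood test, Benjamini-Hochberg adjusted p under 0.05 over all genes). The median log2 fold change of the 60 was 1.01, that of all genes -0.03, and 59 of the 60 were positive. The exception was ATP5SL, at -0.16 ± 0.16 (SE). Of the 13 mitochondrial genes 6 were higher and none lower, with a median of 1.37. Every complex thus had members that rose, from both genomes where it draws on both, except complex III, where CYTB rose and UQCRH did not pass.

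Markers of several cell types differed between the same ages. Fibroblast markers summed to 41820 and 53520 CPM in WT at day 65 against 17490 to 28170 at birth, and to 25090 to 35440 CPM in CF against 11360 to 15670. The 17 multiciliated cell markers went the other way, from 834.3 to 1182 CPM to 2834 to 4913 in WT and from 1186 to 1506 CPM to 2837 to 3211 in CF, with 1 marker at 0. The 10 cell cycle genes summed to 690.1 to 820.9 CPM in WT at day 65 against 264.3 to 279.5 at birth, and to 620.4 to 803.3 CPM in CF against 188.7 to 198.1. Day 65 and birth did not overlap in either genotype for these 3 lists. Smooth muscle, cartilage and adipocyte markers also stood apart in both genotypes, higher at birth, and so did thymus and erythroid markers, lower at birth. The part of all these lists in the rise of the respiratory genes was not tested.

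The calls rested on few libraries. The number of nuclear genes called was 1 without WT day 65 replicate 1, 3 without WT day 65 replicate 2, the library that shares its identifier with a CF library, 3 without CF day 65 replicate 1 or 2, 10 without CF day 100 replicate 1 or 2, 4 without WT day 147 replicate 2 and 1 without CF day 147 replicate 2, while it was 32 without WT day 147 replicate 1. Without the 4 libraries that hold genes of other organs it was 1, NDUFA4L2, which was not among the 21, and with DESeq2 in place of edgeR it was 41. The number of mitochondrial genes called was 0 without WT day 65 replicate 2, CF day 65 replicate 2 or CF day 147 replicate 2, 3 without CF day 65 replicate 1 or WT day 147 replicate 1, and 0 without the 4 libraries with other organs. No fold change of a called gene turned sign in any of these fits. With DESeq2 27.7% of all genes were called, against 18.6% with edgeR. The fits without libraries kept 1 library in some groups.

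Complex I takes electrons from NADH, and 12 of its 36 nuclear subunits rose. NDUFV1, the subunit that binds NADH and flavin (chromosome 21, 44639871 to 44645535 in the coordinates of the tables, of unstated build), had 33.1 and 38.2 CPM in WT at day 65, 126.5 and 68.9 at day 80, 93.1 and 70.3 at day 100, 98.9 and 115 at day 120, and 134 and 175 at birth. In CF it had 44.0 and 50.6 CPM at day 65, 160.5 and 80.6 at day 80, 48.3 and 45.2 at day 100, 153.9 and 52.1 at day 120, and 56.1 and 194 at birth. All birth libraries lay above the day 65 libraries of their genotype, but 1 CF birth library did so by little. The log2 fold change over both genotypes was 1.76 ± 0.41 (SE; adjusted p = 0.0101, edgeR), and it passed in 27 of 32 alternative fits.

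NDUFS1, the largest subunit and part of the path of electrons through iron-sulfur clusters, rose by a log2 fold change of 0.85 ± 0.26 (adjusted p = 0.0382). Its levels were 57.0 and 49.9 (WT) and 49.6 and 53.7 CPM (CF) at day 65, against 128 and 72.6 in WT and 66.9 and 113 in CF at birth, so the ages did not overlap. NDUFS7 and NDUFS8, core subunits that carry iron-sulfur clusters toward the quinone, rose by 1.43 ± 0.40 and 1.28 ± 0.38. Of the accessory subunits, which surround the core, NDUFB1 had the largest fold change, 1.79 ± 0.53, followed by NDUFA6 with 1.57 ± 0.48, NDUFB9 with 1.51 ± 0.46 and NDUFA7 with 1.48 ± 0.47. NDUFB6, NDUFS6, NDUFA8 and NDUFA10 also rose, by 1.35, 1.30, 1.25 and 1.02. The 24 subunits that did not pass had positive fold changes from 0.52 (NDUFV3) to 1.39 (NDUFA13 and NDUFA1).

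Complex II, or succinate dehydrogenase, links the tricarboxylic acid cycle to the chain and is wholly nuclear, and all 4 of its subunits rose. SDHD, a membrane anchor (chromosome 15, 21787783 to 21796688), had the smallest adjusted p of the 73 genes. Its levels in WT were 74.8 and 74.5 CPM at day 65, 132 and 100.4 at day 80, 167 and 130.5 at day 100, 115 and 163 at day 120, and 148 and 197 at birth. In CF they were 82.1 and 80.0 CPM at day 65, 151 and 114 at day 80, 90.2 and 98.8 at day 100, 174 and 115 at day 120, and 110.3 and 174 at birth. Every later library lay above both libraries of day 65 in its genotype. The log2 fold change at birth was 1.01 ± 0.21 (adjusted p = 0.00545, edgeR quasi-likelihood test), and it passed without each single library in turn. It missed without the 4 libraries that hold other organs (1.00, adjusted p = 0.0626) and without these and the 2 birth libraries of highest UCP1 described below (0.91, adjusted p = 0.0984).

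SDHA, the flavoprotein that oxidises succinate, had 70.2 and 76.4 (WT) and 78.2 and 82.4 CPM (CF) at day 65, against 226 and 169 in WT and 111 and 230.5 in CF at birth. It rose by 1.26 ± 0.30 (adjusted p = 0.0112), with no overlap between these ages. SDHB, the iron-sulfur subunit, and SDHC, the other anchor, rose by 0.99 ± 0.29 and 0.66 ± 0.21. SDHB had 40.1 and 43.4 (WT) and 47.9 and 49.7 CPM (CF) at day 65, and 85.4 and 112 in WT and 52.3 and 111 in CF at birth. CF birth replicate 1 was the lowest of the 4 birth libraries for SDHA and SDHB, and at 73.1 CPM also for SDHC, where day 65 in CF had 72.4 and 72.8 CPM.

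UQCRH, the lone nuclear gene of complex III here, had 114 and 140.4 CPM in WT at day 65 against 178.5 and 449.8 at birth, and 178 and 147 CPM in CF against 136 and 349.5. The ages overlapped in CF, and the fold change of 0.94 ± 0.54 did not pass (adjusted p = 0.248). COX5A, a matrix-facing subunit of cytochrome c oxidase, had 31.9 and 32.9 CPM in WT at day 65 against 82.8 and 193.5 at birth, and 48.5 and 40.3 CPM in CF against 42.5 and 151.5. It rose by 1.61 ± 0.52 (adjusted p = 0.0476), with the groups overlapping in CF.

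Of the 14 nuclear genes of the ATP synthase 3 rose, and all 14 had positive fold changes. ATP5A1 had 286 and 296.9 CPM in WT at day 65 against 639 and 719.5 at birth, and 321.9 and 313 CPM in CF against 349 and 716. Its log2 fold change was 0.98 ± 0.27 (adjusted p = 0.0235), with no overlap in either genotype. ATP5D, the delta subunit of the central stalk, rose by 1.34 ± 0.40, and ATP5C1, the gamma subunit that turns within the head, by 0.99 ± 0.31. ATP5B had 0.71 ± 0.26 and did not pass (adjusted p = 0.0795), and in CF its level was 358 and 361 CPM at day 65 against 326 and 689 at birth. The lowest values were those of 2 of the 3 genes for subunit c, ATP5G3 with 0.42 ± 0.31 and ATP5G2 with 0.48 ± 0.27, which did not pass. The third, ATP5G1, had 1.07 ± 0.44 and did not pass either. ATP5S, which encodes no subunit, rose by 0.62 ± 0.17 (adjusted p = 0.0226).

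Among the mitochondrial genes all 3 of complex IV rose, and they had the largest fold changes of that genome beside ND1. COX2, the subunit that accepts electrons from cytochrome c, had 1232 and 656 CPM in WT at day 65, 1422 and 1107 at day 80, 2470 and 1998 at day 100, 2255 and 1821 at day 120, and 3856 and 2206 at birth. In CF it had 1629 and 1294 CPM at day 65, 2320 and 1194 at day 80, 1331 and 1580 at day 100, 2327 and 1535 at day 120, and 2203 and 7651 at birth. Birth lay above day 65 in both genotypes, with a log2 fold change of 1.72 ± 0.40 (adjusted p = 0.0100, edgeR). COX3 had 2696 and 2187 (WT) and 3772 and 3116 CPM (CF) at day 65, against 8827 and 4596 in WT and 5309 and 18980 in CF at birth. It rose by 1.64 ± 0.39 (adjusted p = 0.0120), also with no overlap.

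COX1, the subunit that reduces oxygen, had the largest fold change, 1.77 ± 0.50 (adjusted p = 0.0281). Its levels were 4567 and 3730 (WT) and 5452 and 5258 CPM (CF) at day 65, and 20110 and 4895 in WT and 11750 and 29650 in CF at birth. WT birth replicate 2 lay only just above day 65. ND3, a small membrane subunit of complex I, rose by 1.51 ± 0.38. CYTB, the cytochrome b of complex III, rose by 1.45 ± 0.45, and ATP6, subunit a of the proton channel, by 1.37 ± 0.36. CYTB showed the split at birth plainly, with 2967 and 1909 CPM in WT at day 65 against 8928 and 2793 at birth, so that 1 WT birth library lay below 1 of day 65. The 7 genes that did not pass had fold changes from 1.03 (ND5) to 1.64 (ND1), and the SE were widest for ND4L (1.09), ATP8 (0.87) and ND5 (0.86).

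**Figure D2:**
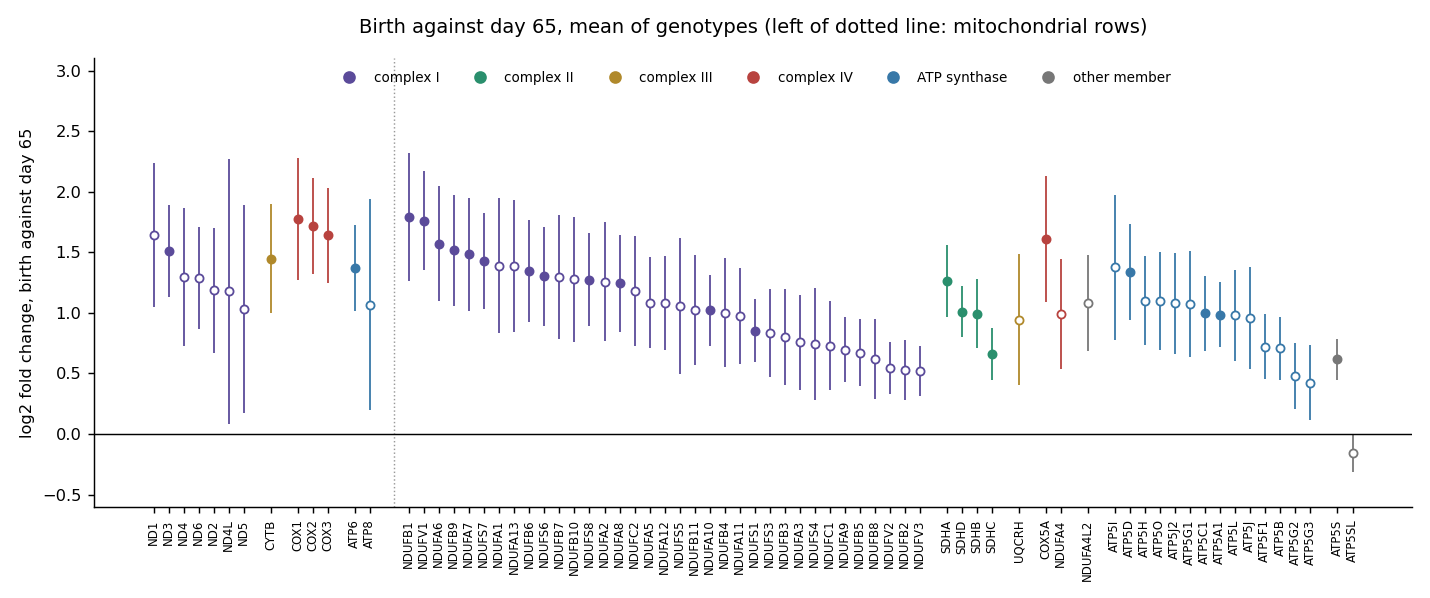
Log2 fold change from day 65 to birth, averaged over WT and CF, for 72 of the 73 genes, with SE as bars; filled points passed at an adjusted p under 0.05 and the dotted line parts mitochondrial from nuclear genes. All shown but ATP5SL lie above 0, and the 4 genes of complex II and the 3 mitochondrial genes of complex IV are filled throughout.

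Within each genotype the tests called few members. In WT 8.23% of all genes were called, 3.7% as higher. NDUFV1 at 2.12, SDHD at 1.21 and the mitochondrial ND6 at 2.37 (log2) were called higher, which is 2 of 60 nuclear and 1 of 13 mitochondrial genes (edgeR, adjusted p from 0.0268 to 0.0425). ND6, the only protein gene on the other strand of mitochondrial DNA, had 328 and 80.0 CPM in WT at day 65 against 1347 and 760.3 at birth. The medians in WT were 1.34 for the nuclear and 1.46 for the mitochondrial genes. Of the nuclear genes 59 of 60 were higher in both birth libraries than in both of day 65, where 25.7% of all genes were, against 6 of 13 mitochondrial genes. The number of nuclear genes called in WT changed as single libraries of either genotype were left out. With DESeq2 it was 34. Where 1 library of a group was left out, the other was taken to vary like the rest. DESeq2 called 20.3% of all genes in WT. ND6 lost its call without WT day 65 replicate 2, WT day 147 replicate 1 or 2, CF day 65 replicate 1 or CF day 100 replicate 1 or 2.

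In CF 5.49% of all genes were called between birth and day 65, 1.78% as higher. None of the 73 was, by edgeR. DESeq2 called 1 nuclear and 5 mitochondrial genes, where it called 11.9% of all genes. The medians were 0.70 for the nuclear and 1.56 for the mitochondrial genes. Without overlap between the ages 17 of 60 nuclear and 11 of 13 mitochondrial genes were higher at birth, where 28.9% of all genes were. The nuclear count was thus close to the share of all genes. In both genotypes at once 17 nuclear and 4 mitochondrial genes did so, where 15.5% of all genes did. Some mitochondrial genes were called without CF day 147 replicate 1, a fit that kept 1 CF birth library.

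The test of the difference between the developments of CF and WT called none of the 73, where 0.00498% of all genes, a single gene, were called. DESeq2 called none of the 73 either. The medians of the difference were -0.68 for the nuclear and 0.36 for the mitochondrial genes. Over all 5 ages an F test called SDHD, SDHA, NDUFV1, NDUFA4L2 and ATP5S among the nuclear genes and COX2 and COX3 among the mitochondrial ones, where 17.9% of all genes were called. These counts of 5 and 2 changed as single libraries were left out, and they fell without any single library of day 65 in either genotype.

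The ratio of summed mitochondrial to summed nuclear counts was above 1 in every library. In WT it was 6.46 and 4.10 at day 65, 1.32 and 3.98 at day 80, 3.16 and 4.18 at day 100, 7.13 and 2.36 at day 120, and 11.8 and 2.15 at birth. In CF it was 6.09 and 5.86 at day 65, 3.58 and 2.64 at day 80, 5.58 and 6.13 at day 100, 3.28 and 6.91 at day 120, and 10.5 and 13.1 at birth. Both CF birth libraries exceeded every other CF library, with a log2 ratio of 3.55 ± 0.23 at birth against 2.58 ± 0.04 at day 65 (SD, n = 2 each), a difference of 0.98. Both CF birth libraries carry the same sample identifier, so they may be 1 sample. In WT the difference was -0.03, from 2.33 ± 1.73 at birth and 2.36 ± 0.47 at day 65, and it was -1.26 without WT birth replicate 1 and 1.20 without WT birth replicate 2. The difference between birth and day 65 in WT was thus set by which birth library was used. No p was computed for this ratio.

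The nuclear share moved with the length slope of the library. In 8 of the 10 pairs of replicates the nuclear share was higher in the library of lower slope, that is the library with more counts on short genes, and the mitochondrial share was so in 3 of 10. The 4 libraries of slope under -0.2 had nuclear shares from 0.690% to 0.770%. High shares were not confined to them. The highest, 0.835%, was in CF day 80 replicate 1, of slope -0.11, the library with skeletal muscle genes at 28450 CPM. CF birth replicate 2 had 0.754% at a slope of -0.06, with adipocyte markers at 2600 CPM. The part of these tissues was not tested. The nuclear genes are short, with a median summed exon length of 845.5 bases (300 to 4718), as are the mitochondrial ones, with a median of 784 (201 to 1821). Over all genes of up to 1000 bases the median change from day 65 to birth was 0.51, with 216 higher and 66 lower of 2200, and over genes of more than 4000 bases it was -0.25. Genes of up to 1000 bases had a median of 0.79 in WT and 0.23 in CF, the same order as the nuclear members.

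With the length slope as covariate, the median change of the nuclear genes to birth was 0.34 in place of 1.01, and 8 passed: SDHD (0.72), SDHA (1.16), NDUFV1 (1.26), NDUFS1 (1.09), ATP5A1 (0.72), ATP5D (0.66), NDUFB6 (0.53) and ATP5S (0.47). The median of the mitochondrial genes was 1.81 and all 13 passed, from 1.21 for ND3 to 2.71 for ND4L. In that fit 30.1% of all genes passed in either direction, against 18.6% without the covariate. The nuclear count lay under that share and the mitochondrial count above it. Leaving out the 4 libraries of slope under -0.2 kept 1 library in some WT groups. The fold changes of SDHD, SDHA, NDUFV1 and NDUFS1 were then 0.92, 1.38, 1.68 and 1.05. Those of COX1, COX2 and COX3 were 2.14, 1.92 and 1.86. The slope was measured on the same libraries, and its part in the results without the covariate was not tested further.

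The 2 libraries of highest mitochondrial share were also the 2 highest in adipocyte genes. The 8 adipocyte markers summed to 5011 CPM in WT birth replicate 1 and 2600 CPM in CF birth replicate 2, against 209.5 and 220.7 CPM in the other birth libraries of WT and CF. None of the 8 was at 0 in a birth library, and at day 65 they summed to at most 9.48 CPM. WT day 120 replicate 1 and CF day 120 replicate 1 had 2231 and 1480 CPM, with mitochondrial shares of 4.13% and 2.51%. Other libraries did not follow this order: CF birth replicate 1, with 220.7 CPM of adipocyte markers, had the third highest share, 4.20%, and CF day 120 replicate 2, with 506.5 CPM, and CF day 65 replicate 1, with 7.705 CPM, had 2.93% and 2.83%, above CF day 120 replicate 1. UCP1, the uncoupling protein of brown adipocytes, was at 276 CPM in WT birth replicate 1 and 151 CPM in CF birth replicate 2, at 9.91 CPM in CF birth replicate 1, 7.23 in WT day 120 replicate 1 and 3.54 in CF day 120 replicate 1, and under 1 CPM in the other 15 libraries. Without the 2 birth libraries of highest UCP1, a choice made after their values were seen, the median change of the 13 mitochondrial genes to birth was 0.45. The same 2 had the highest mitochondrial share, so leaving them out was bound to lower this change and cannot bear on adipocytes. It also kept 1 birth library per genotype. The fold change of SDHD was then 0.93, and the CF median over the nuclear genes was -0.06. In WT alone, birth was then replicate 2, whose length slope of -0.34 was the lowest of all libraries and in favour of short genes.

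**Figure D3:**
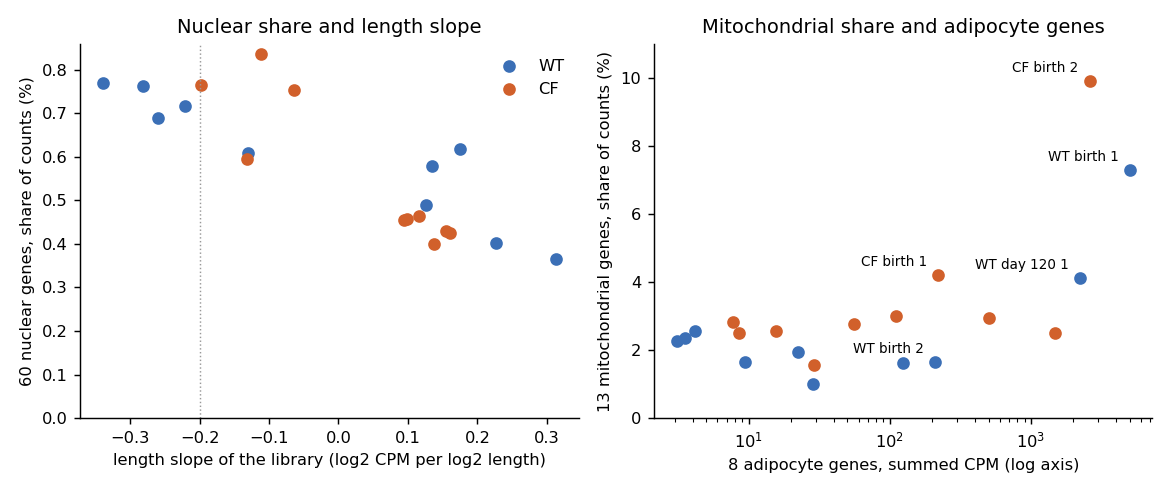
Left, share of all counts (%) of the 60 nuclear genes against the length slope of each library, with the dotted line at -0.2; right, share of the 13 mitochondrial genes against the summed CPM of 8 adipocyte markers (log axis); points are libraries (WT blue, CF orange). The 4 libraries under -0.2 lie between 0.690% and 0.770%, and the 2 highest mitochondrial shares belong to birth libraries with 5011 and 2600 CPM of adipocyte markers.

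No difference between CF and WT over the mean of the ages passed the edgeR test: none of the 73 was called, where 0.766% of all genes were. The medians of the log2 fold change of CF against WT were -0.16 for the nuclear and 0.33 for the mitochondrial genes. DESeq2 called NDUFA4 and NDUFB2 lower and NDUFA4L2 and ATP8 higher in CF, where it called 4.12% of all genes. NDUFA4, NDUFB2 and ATP8 were also called in these directions by edgeR once the length slope was a covariate. In that fit 3.94% of all genes were called. Both counts are thus near the share of all genes in their fit. These 4 genes are described below with their values.

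NDUFA4, a subunit of cytochrome c oxidase first counted to complex I (chromosome 4, 19001142 to 19008503), was lower in CF at most ages. Its levels in WT were 49.2 and 52.2 CPM at day 65, 198 and 72.2 at day 80, 122.5 and 87.1 at day 100, 87.5 and 113 at day 120, and 87.4 and 145 at birth. In CF they were 29.1 and 28.6 CPM at day 65, 99.7 and 49.2 at day 80, 28.5 and 28.7 at day 100, 72.3 and 25.4 at day 120, and 20.04 and 78.9 at birth. The CF libraries lay below the WT libraries of their age without overlap at days 65, 100, 120 and 147, and overlapped them at day 80. The log2 fold change over the ages was -1.16 ± 0.29 and missed the threshold (adjusted p = 0.0985, edgeR quasi-likelihood test), over a range from 0.00262 to 0.235 in the alternatives. It passed with DESeq2 (-1.18, adjusted p = 0.00262), with the length slope as covariate (-1.05, 0.0167), without WT day 80 replicate 2 (-1.27, 0.0477) and without the 2 birth libraries of highest UCP1 (adjusted p = 0.0470). In all other alternative fits it stayed negative and did not pass, and it was smallest without the 4 libraries of slope under -0.2 (-0.81).

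COX5A, of the same complex, served as a reference within each library. The count of NDUFA4 was 75.1% to 159% of that of COX5A in the 10 WT libraries and 47.1% to 71.1% in the 10 CF libraries, without overlap. The ratio was chosen after its values were seen, so it is a description only. The CPM of COX5A itself overlapped between the genotypes at days 80, 120 and 147, was higher in CF at day 65 and was lower in CF at day 100, at 47.2 and 48.5 against 129 and 79.2 in WT.

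NDUFA4L2, a paralogue of NDUFA4 that is known as a target of the low oxygen response (chromosome 3, 161906145 to 161908419), had the opposite sign. Its levels in WT were 2.15 and 4.85 CPM at day 65, 7.98 and 13.1 at day 80, 1.22 and 0.855 at day 100, 6.09 and 10.9 at day 120, and 7.84 and 6.56 at birth. In CF they were 4.51 and 9.04 CPM at day 65, 13.6 and 8.38 at day 80, 3.82 and 5.20 at day 100, 15.1 and 5.77 at day 120, and 12.7 and 16.9 at birth. CF lay above WT without overlap at day 100 and at birth, and overlapped it at the other ages. The log2 fold change over the ages was 0.89 ± 0.25 and did not pass (adjusted p = 0.153), and at day 100 it was 2.12 ± 0.58 (adjusted p = 0.105). With DESeq2 it passed over the ages (0.87, adjusted p = 0.0192). NDUFB2, an accessory subunit of complex I on the same chromosome as NDUFA4, had -0.49 ± 0.16 (adjusted p = 0.215), and the CF and WT libraries overlapped, with 96.3 to 169.5 CPM in CF and 110.8 to 268.4 CPM in WT.

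**Figure D4:**
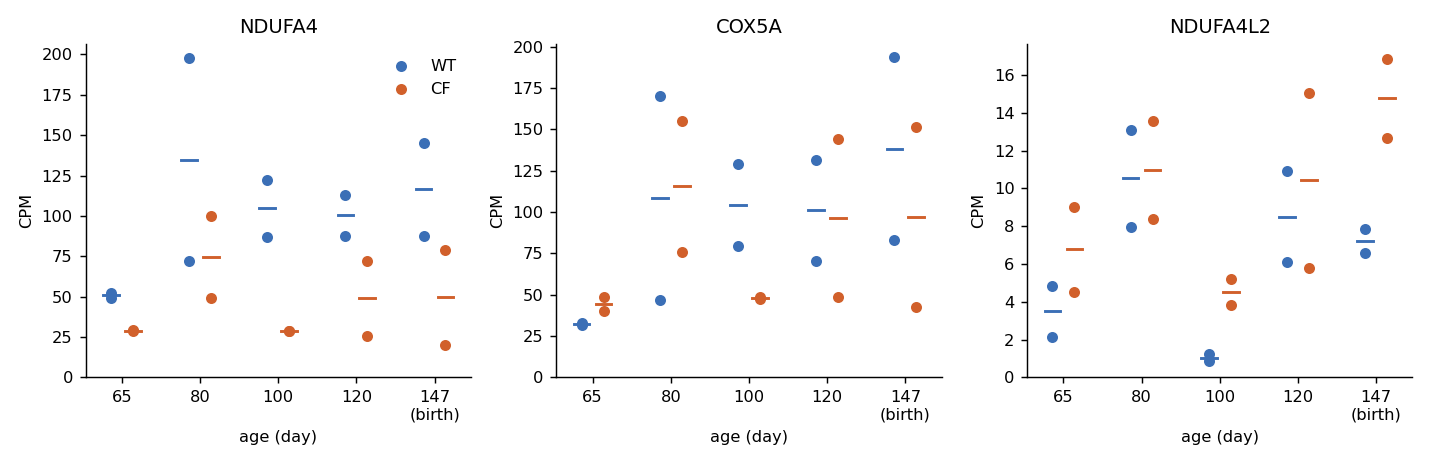
CPM of NDUFA4, COX5A and NDUFA4L2 against age in days; each point is a library (WT blue, CF orange) and each bar the mean of 2. NDUFA4 is lower in CF without overlap at every age but day 80, while COX5A overlaps at days 80, 120 and 147, and NDUFA4L2 lies higher in CF at day 100 and at birth.

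ATP8, a small subunit of the membrane part of the synthase, had the largest difference of the mitochondrial genes. It starts upstream of ATP6 and shares 40 bases with it. Its level in WT was 118 and 87.7 CPM at day 65, 7.21 and 86.2 at day 80, 49.6 and 87.9 at day 100, 177 and 24.4 at day 120, and 319.5 and 15.4 at birth. In CF it was 311.5 and 294 CPM at day 65, 313 and 119 at day 80, 312 and 326.5 at day 100, 138 and 365 at day 120, and 558 and 1075 at birth. CF lay above WT without overlap at days 65, 80, 100 and 147. The log2 fold change over the ages was 1.92 ± 0.57 and did not pass (adjusted p = 0.180, edgeR), with adjusted p from 0.00255 to 0.548 over the alternatives. It passed with DESeq2 (1.90, adjusted p = 0.00712), with the length slope as covariate (2.16, 0.00255) and without WT day 147 replicate 1 (2.61, 0.0394).

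The ratio of ATP8 to ATP6 counts was 0.517% to 7.69% in WT, with a median of 4.92%, and 5.18% to 17.4% in CF, with a median of 14.4%. In WT it was 0.517% to 2.06% in the 4 libraries of slope under -0.2 and 3.87% to 7.69% in the other 6. At like slopes the genotypes stood apart: in the 5 WT libraries of positive slope ATP8 took at most 0.629% of the mitochondrial counts, and in the 6 CF libraries of positive slope at least 1.25%. This split was seen in the values first and was not tested. ND4L, the other very short mitochondrial gene, took 0.110% to 0.899% of the mitochondrial counts in CF and 0.0629% to 0.994% in WT, without such a split.

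The makeup of the mitochondrial counts differed with the length slope for some genes and not for others. CYTB took 12.6% to 15.5% of the mitochondrial counts in all 20 libraries, with medians of 13.97% in WT and 13.8% in CF. COX1 took 17.4% to 29.3%. COX3 took 20.01% to 23.5% in the 4 libraries of slope under -0.2 and 12.5% to 20.7% in the other 16, and ND3 2.12% to 3.26% against 0.879% to 1.96%, without overlap for ND3. ND4L went the other way, with 0.0629% to 0.0911% against 0.110% to 0.994%, and so did ATP8, with 0.0583% to 0.202% against 0.345% to 1.39%. ND4 took 7.23% to 9.41% in the 4 libraries and 9.63% to 16.9% in the others. ND3 and ND4L, of 346 and 297 bases, are alike in length and went opposite ways. ND6, read from the other strand and overlapping ND5 by 17 bases, took 2.21% to 3.92% in those libraries and 0.574% to 2.43% in the others. The sources used here do not state whether strand was used in counting, so reads of ND5 and ND6 in the shared bases cannot be told apart.

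**Figure D5:**
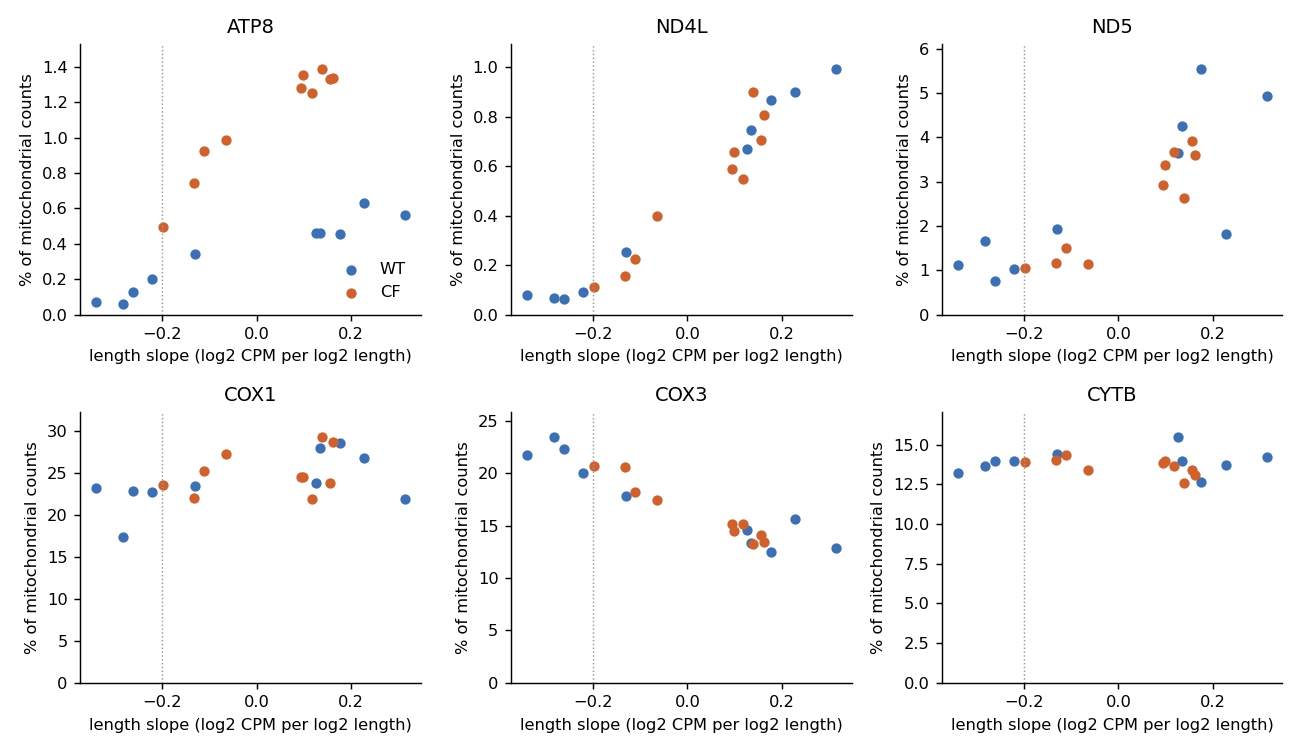
Share of the mitochondrial counts (%) taken by ATP8, ND4L, ND5, COX1, COX3 and CYTB against the length slope of the library; points are libraries (WT blue, CF orange) and the dotted line marks -0.2. ATP8 and ND4L are lowest and COX3 highest at low slopes, CYTB stays between 12.6% and 15.5%, and ATP8 lies higher in CF at like slopes.

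At single ages none of the 73 was called in CF against WT by edgeR. Of all genes 0.00995% were called at day 65, 0.0% at days 80 and 120, 1.46% at day 100 and 0.0945% at day 147. With DESeq2 2 calls were made among the nuclear genes over the 5 ages, where it called 0.0846% to 6.02% of all genes. The median of the nuclear genes was 0.31 for day 65 and 0.15 for day 80, then -0.79 for day 100, -0.08 for day 120 and -0.35 for birth, with no member past the edgeR test. At day 65, 50 of 60 were higher in both CF libraries than in both WT libraries, where 23.8% of all genes were. The WT pair of day 65 had length slopes of 0.31 and 0.23 and the CF pair 0.12 and 0.15, so slope and genotype moved together. Replicate 2 of each of these pairs also held genes of other organs. The part of slope and other organs in the day 65 difference was not tested. At day 100, 58 of 60 were lower in CF without overlap, where 30.0% of all genes were. At birth 3 were lower and 2 higher without overlap, where 15.6% of all genes were lower and 15.6% higher. The WT day 100 pair had length slopes of -0.22 and -0.13 and the CF pair 0.10 and 0.09, and genes of up to 1000 bases had a median of -0.46 at that age, so slope and genotype moved together there. Cell markers also stood apart at day 100. Fibroblast markers summed to 4649 and 6687 CPM in the WT pair, the lowest of the 20 libraries, against 36740 and 38700 CPM in CF, and epithelial markers to 6348 and 6993 CPM against 3965 and 4222, with no marker of either list at 0. The part of slope and markers in the day 100 difference was not tested. Both libraries of that WT pair carry the same sample identifier. The F test for a genotype difference that changes with age called none of the 73, also at an unadjusted p under 0.05, where 0.0697% of all genes were called.

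Lists of other genes of mitochondrial function were counted in the same comparison of birth with day 65, in which 8.77% of all genes were called higher and 9.86% lower. Of the factors that assemble complex I, 3 of 15 tested rose, ECSIT, NDUFAF2 and FOXRED1, with a median of 0.41 over the list. Of the factors for complexes II to V, 2 of 17 rose: HIGD1A by 1.44 ± 0.17 and SURF1, which acts on complex IV, by 1.24 ± 0.36. That count is near the share of all genes. HIGD1A, which binds cytochrome c oxidase, had 37.6 and 37.1 (WT) and 43.6 and 44.1 CPM (CF) at day 65, against 100.3 and 176.5 in WT and 77.7 and 97.4 in CF at birth, and its call held in all 32 alternative fits. Of 14 other carriers of electrons 5 rose, among them ETFDH, which feeds electrons from fatty acid oxidation to ubiquinone, by 1.41 ± 0.37 and AIFM1 by 1.01 ± 0.19. ETFDH had 22.1 and 22.5 (WT) and 27.0 and 23.0 CPM (CF) at day 65. At birth it was split, with 103.5 and 34.0 CPM in WT and 33.0 and 81.5 in CF. Of 18 genes of the tricarboxylic acid cycle 5 rose, with SUCLG2 at 1.16 ± 0.19, MDH2 at 1.05 ± 0.31 and SUCLG1 at 1.02 ± 0.32 among them.

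Of 15 carriers and uncouplers of the inner membrane 6 rose, including UCP2 by 1.46 ± 0.24 and the ADP and ATP exchangers SLC25A5 by 1.31 ± 0.23 and SLC25A4 by 1.63 ± 0.53. UCP1 was among them, with the levels given above. Among 15 regulators of mitochondrial biogenesis PPARGC1B rose by 2.56 ± 0.65, ESRRA by 1.48 ± 0.33 and MYC by 0.80 ± 0.21, and NRF1, a transcription factor named for its sites in respiratory genes, fell by 0.57 on the log2 scale (SE 0.12). NRF1 had 41.9 and 44.1 (WT) and 44.9 and 46.6 CPM (CF) at day 65, against 27.0 and 26.2 in WT and 33.2 and 33.4 in CF at birth. PPARGC1B had 5.03 and 5.07 (WT) and 2.9 and 3.71 CPM (CF) at day 65. At birth it had 40.3 and 6.94 CPM in WT, so the rise there lay mostly in replicate 1, and 23.0 and 25.9 in CF. Of 17 genes of mitochondrial DNA upkeep and transcription none rose, and MGME1, a nuclease of mitochondrial DNA, fell by 0.70 on the log2 scale. Of 17 genes of mitochondrial RNA processing LRPPRC alone rose, by 0.83 ± 0.15; it binds and stabilises mitochondrial messenger RNA. Of 74 proteins of the mitochondrial ribosome 3 rose (median 0.55), below the 8.77% of all genes. Of 75 of the cytoplasmic ribosome none did by edgeR, with a median of 0.81. In glycolysis and the low oxygen response 4 of 26 rose and 1 fell. CF against WT called 5 of these 26 as higher and none in the other lists, over the mean of the ages. Of all genes 0.766% were called in either direction. Among the 5 were SLC2A3 (1.19 ± 0.20), EGLN3 (0.94 ± 0.12), BNIP3 (0.91 ± 0.18) and PDK1 (0.62 ± 0.11). BNIP3 kept its call in 11 of 32 alternative fits.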

How the data were processed

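Raw counts per gene were deposited by the authors in 1 table a genotype, beside gene positions and summed exon lengths. Alignment used STAR 2.6 and counting featureCounts 1.6.3 (Subread), per the submitters' processing notes. Genome build, annotation and strand setting are not stated in the sources used here. Columns were matched to samples by title.

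A quasi-likelihood model was fitted with edgeR 4.0.16 (R 4.3.3) after filterByExpr over the 10 groups (20097 of 24478 genes). Scaling was by the trimmed mean of M-values, with robust estimation and 1 coefficient per group over all 20 libraries. The fit was also run on simulated counts drawn without length slopes, genes of other organs or shared identifiers, so that run does not cover these. Adjusted p (Benjamini-Hochberg, all tested genes) were called under 0.05. The SE is the size of the log2 fold change over the square root of F. DESeq2 1.42.0 was an alternative. The length slope used genes with a mean log2 CPM of at least 2.

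The genes named are the mitochondrial ones, SDHA to SDHD, NDUFA4, NDUFA4L2, core subunits, the 8 called nuclear genes of largest change in a comparison, and up to 4 called genes of each other list. Genes and lists were chosen with earlier results of these data known, and the remaining called genes, ATP5G1, ATP5G2, ATP5G3, NDUFB2 and genes given as extremes were chosen after their values were seen. The 3 genes listed under identifiers that RefSeq (assembly ARS-UI_Ramb_v3.0, names only) calls ATP5IF1, ATP5MK and ATP5F1E were outside the rule on names. A few genes that this rule takes are not reported here.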

Additional observations from a re-analysis of the deposited data

How the results depend on the processing

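Fold changes of the genes called at birth against day 65 kept their sign in every fit, while the number called varied. So did the share of all genes called. For birth against day 65 over both genotypes, the main fit, DESeq2 and the length slope covariate called 18.6%, 27.7% and 30.1%. In WT these shares were 8.23%, 20.3% and 16.5%, and in CF 5.49%, 11.9% and 17.1%. For CF against WT they were 0.766%, 4.12% and 3.94%, and for any age 17.9%, 34.9% and 38%. With library sizes alone, 20.1% were called at birth against day 65 over both genotypes and 17.8% for any age. Without the 2 birth libraries, WT birth was replicate 2 alone, of the lowest length slope. For birth against day 65 over both genotypes, 21 nuclear and 6 mitochondrial genes became 11 nuclear with library sizes alone, 41 with DESeq2, 8 and 13 with the length slope as covariate, 4 and 10 without the libraries of slope under -0.2, 1 and 0 without the 4 libraries holding other organs, 1 and 0 without the 2 birth libraries of highest UCP1, 0 and 0 without all 6, and 7 nuclear with libraries of a shared identifier summed. They ran from 1 to 32 and from 0 to 9 with single libraries left out. In WT, 2 and 1 became 34 and 4 with DESeq2, 6 mitochondrial with the covariate, 0 and 0 without low slopes, without the 4 or without all 6, and 23 nuclear without the 2; single libraries gave 0 to 18 and 0 to 3. In CF, 0 and 0 became 1 and 5 with DESeq2, 2 and 8 with the covariate and 1 mitochondrial without low slopes; single libraries gave 0 to 0 and 0 to 2. For CF against WT, 0 and 0 became 3 and 1 with DESeq2, 2 and 1 with the covariate and 1 nuclear without the 2 birth libraries; single libraries gave 0 to 1 for both, and DESeq2 made 2 calls at single ages. For any difference among ages, 5 and 2 became 3 and 1 with library sizes alone, 23 and 9 with DESeq2, 12 mitochondrial with the covariate, 1 and 6 without low slopes, 1 and 0 without the 4, 2 and 0 without the 2, 0 and 0 without all 6, and 0 and 0 with shared identifiers summed; single libraries gave 1 to 9 and 0 to 8.

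The log2 ratio of mitochondrial to nuclear counts at birth minus day 65 in WT, -0.03, was 1.20 without low slopes, -1.26 without the 2 birth libraries and -1.58 without all 6, from -1.26 to 1.20 with single libraries left out. CF minus WT, 0.55, was -0.052 without low slopes. The cause was not tested. The median of all genes moved by -0.30 with library sizes alone and by -0.14 without the 2 birth libraries at birth against day 65. Upper quartile scaling, mitochondrial genes left out of scaling and no filter on low counts moved no count by over 1.5 times, and protein-coding mitochondrial genes only is the same set of 13.

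Replicate numbers did not pair the samples: deviations of libraries of the same number in different groups correlated from -0.588 to 0.733, with a median of 0.0231 over 45 pairs of groups. With the replicate number as a block, 11 nuclear genes were called at birth against day 65 in place of 21, 1 in WT in place of 2, and 2 nuclear and 1 mitochondrial among ages in place of 5 and 2.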

Other observations

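In 7 of the 10 groups at least 55 of the 60 nuclear genes were higher in the same library of the pair. All 60 were higher in replicate 1 of CF day 80 and all 60 in replicate 1 of CF day 120, by a median of 1.53-fold and 2.35-fold, and none was in CF day 147, where replicate 2 was higher by a median of 2.25-fold. In WT 56 of 60 were higher in replicate 1 at day 80 (median 2.20-fold), 59 of 60 at day 100 (1.35-fold), 3 of 60 at day 120 and 5 of 60 at day 147, with medians of 1.65-fold and 1.91-fold the other way. There was no such split in the other 3 groups: 13 of 60 were higher in replicate 1 of WT day 65, 42 of 60 in CF day 65 and 27 of 60 in CF day 100, with medians of 1.07-fold, 1.07-fold and 1.00-fold. Of other genes of up to 1000 bases, 49.6% to 69.5% were higher in the library of lower length slope of a pair, with 53.5% in CF day 80 and 69.5% in CF day 120. Some pairs also differed in genes of other organs: skeletal muscle markers summed to 28450 CPM in CF day 80 replicate 1 against 31.52 CPM in replicate 2, and thyroid markers to 110800 CPM in WT day 80 replicate 2 against 185.9 CPM in replicate 1. The mitochondrial genes split the other way in several groups: at day 80 in WT 4 of 13, and at days 120 and 147 in WT 12 of 13 and 13 of 13, were higher in replicate 1. In CF day 80 and CF day 147 both genomes were higher in the same library, for all 13 mitochondrial and all 60 nuclear genes. These counts describe single pairs of libraries and were not tested.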
